A study of Mus musculus with 12 samples.

Results

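Aortic valve leaflets with deletion of fibulin-4 in endothelial cells alone by genotype label (ECKO, 3 libraries) were compared with control leaflets (CTRL, 3 libraries). These are 6 of the 12 libraries of the series, chosen by their genotype labels and described across all genes with enough counts. Both groups came from mice of strain C57BL/6J;129SvEv aged 2 months. The labels give the genotype codes only; in the study as it is known, the deleted gene is Efemp2, which encodes fibulin-4. The Cre driver, the floxed exons, the alleles carried by CTRL mice and the sex of the animals are not stated in the labels. Libraries labelled with deletion in smooth muscle cells only (SMKO) and in both cell types (DKO) shared strain and age. They entered the estimate of the spread, the choice of tested genes and the scaling of counts. They also gave a second, separate pair of groups that differ by label in the endothelial deletion (DKO against SMKO). Leaflets were cut by laser from paraformaldehyde-fixed, hematoxylin-stained frozen sections of 20 μm. The amplified cDNA was made into libraries with Nextera XT, a kit that loses strand information, and sequenced as 75-base pairs on a MiSeq. Each group is described as biological triplicates, with no library tied to a named animal.

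Fibulin-4 is a secreted glycoprotein of the elastic fibre. It binds tropoelastin and helps to bring the cross-linking enzyme lysyl oxidase to it, and without it elastic fibres form poorly and collagen fibrils are abnormal. A valve leaflet is covered by endothelium and filled with interstitial cells, which make a layered matrix of collagen, proteoglycan and elastin. In mice the leaflets also hold macrophages and pigment-producing melanocytes, neural crest cells that depend on KIT and its ligand.

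The libraries were shallow and uneven. Total counts were 207637, 615665 and 379034 in ECKO 1, 2 and 3, against 576910, 561166 and 159857 in CTRL 1, 2 and 3. ECKO 1 and CTRL 3, the shallowest of each group, stood apart: mitochondrially encoded genes took 20.9% of counts in ECKO 1 and 26.7% in CTRL 3, and 10.5% to 13.96% in the other 4. The satellite-like model Gm10800 took 0.980% of counts in ECKO 1 and 2.98% in CTRL 3. ECKO 1 held 1 count of Y-linked genes and CTRL 3 held 31, and the other 4 libraries held 0. The leading log2 distance over the 500 genes that differed most ran from 1.15 to 1.84 between ECKO libraries, from 1.32 to 2.22 between CTRL libraries and from 1.35 to 2.21 between the groups, ranges that overlap. List medians are also given without ECKO 1 and CTRL 3, an alternative chosen after the totals had been seen.

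Defining genes of both main leaflet cell types were present in all 6 libraries. In TPM, the authors' length-scaled level, the endothelial markers Pecam1 and Emcn averaged 139 against 102 and 119.6 against 92.2 TPM (ECKO against CTRL), and Vwf and Prox1 25.1 against 12.8 and 11.8 against 9.58 TPM. Tie1 and Kdr averaged 35.9 against 26.7 and 18.0 against 14.8 TPM. Nfatc1 was even at 21.7 against 21.3 TPM, and Cdh5 lay lower at 44.2 against 54.7 TPM. Libraries spread widely: Pecam1 had 84.1, 149 and 184 TPM in ECKO 1, 2 and 3, against 97.9, 116 and 93.4 TPM in CTRL 1, 2 and 3. The interstitial markers Dcn and Lum stood far higher, at 12369 ± 399 TPM in ECKO and 15293 ± 3659.8 TPM in CTRL for Dcn and 2913 ± 137 TPM in ECKO and 3223 ± 982 TPM in CTRL for Lum (SD, n = 3). Postn and Vim also averaged lower in ECKO (1301 against 1681 and 2606 against 2792 TPM). Col1a1, Col3a1 and Pdgfra averaged higher (645 against 487, 641 against 612 and 41.8 against 40.5 TPM). The most abundant nuclear transcript in both groups was Mgp, which encodes matrix Gla protein, an inhibitor of calcification, at 43459.6 ± 3057 TPM in ECKO and 35863 ± 4609 TPM in CTRL (SD, n = 3). Its values were 41847, 46986 and 41547 TPM in ECKO 1, 2 and 3, against 36533, 40101 and 30957 TPM in CTRL 1, 2 and 3. All 3 ECKO libraries lay above all 3 CTRL libraries on the TPM scale, but not on the scale used below, where Mgp overlapped (17050.4, 14319 and 11963 CPM in ECKO, against 9623, 11176 and 15743 CPM in CTRL). TPM are not corrected for transcripts that dominate a library: Gm10800 took 65077 TPM in CTRL 3 and 23907 TPM in ECKO 1. The TPM means of the other genes above can likewise differ from the scale used below.

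Efemp2 (ENSMUSG00000024909) was detected in every library of both groups and was lower in each ECKO library than in each CTRL library. It had 3, 15 and 8 counts in ECKO 1, 2 and 3, against 58, 23 and 9 counts in CTRL 1, 2 and 3. Levels below are CPM, counts scaled to library size with trimmed mean of M-values (TMM) factors; on this scale Efemp2 stood at 15.4, 21.9 and 18.4 CPM in ECKO 1, 2 and 3, against 84.5, 35.5 and 66.9 CPM in CTRL 1, 2 and 3. The means were 18.5 ± 3.27 CPM in ECKO and 62.3 ± 24.8 CPM in CTRL (SD, n = 3 each). The log2 fold change, ECKO over CTRL, was -1.65 ± 0.48 (SE), with a 95% interval from -2.62 to -0.68. It did not pass edgeR's quasi-likelihood test with Benjamini-Hochberg adjustment over all genes (adjusted p = 0.939). An exact two-sided permutation test of the 6 libraries gave p = 0.1, the smallest that 3 against 3 allows. Over all settings tried the log2 fold change stayed between -2.00 and -1.27, with the value nearest to 0 reached without CTRL 1. RNA left in ECKO leaflets was not assigned to a cell type, and in these bulk libraries fewer cells of a type and less RNA per cell cannot be told apart. Whether the loss was confined to endothelial cells was not tested. Which exons were deleted was not known, and an exon of Mus81 on the opposite strand overlaps the gene, so some reads may belong to Mus81.

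No gene separated ECKO from CTRL leaflets after adjustment at this depth. Of 6296 genes tested, 0 passed at an adjusted p under 0.05 (0%), and the smallest adjusted p was 0.111, for Id4. At an unadjusted p under 0.05 there were 273 genes (4.34%), of which 133 lay higher (2.11%) and 140 lower (2.22%) in ECKO. DESeq2 called 2 genes, Dct and Id4, both lower, and limma-voom with library weights called 0 with 542 at an unadjusted p under 0.05. All 3 ECKO libraries lay above all 3 CTRL libraries for 361 genes (5.73%) and below them for 382 (6.07%). The median log2 fold change was -0.0041, its quartiles were -0.23 and 0.24, and 49.5% of genes lay above 0. The median SE was 0.34. For 3399 genes (54.0%) the 95% interval lay within 1 of 0 on the log2 scale, so a 2-fold difference in either direction was outside the interval for about that share only. The fitted difference exceeded 2-fold for 115 genes (1.83%).

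**Figure D1:**
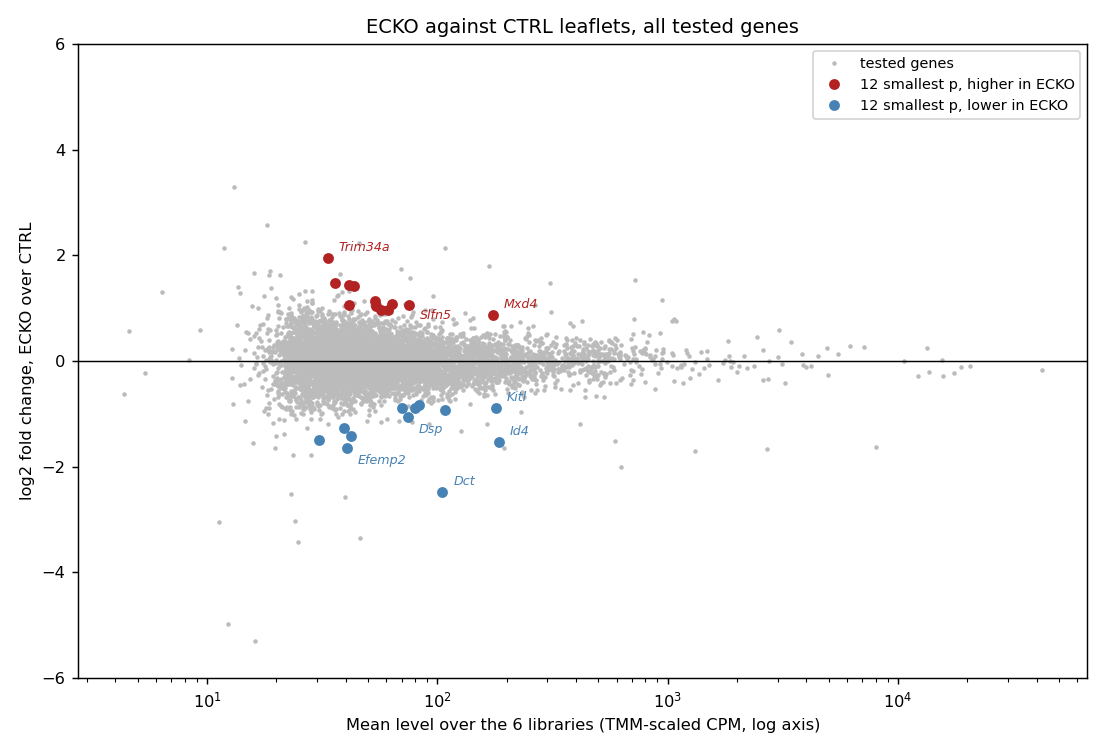
Log2 fold change (ECKO over CTRL, vertical axis) against mean level over the 6 libraries (TMM-scaled CPM, log axis) for the 6296 tested genes in grey. The 12 genes with the smallest p on each side are coloured, red for higher and blue for lower in ECKO, and 8 of them are named; none passed after adjustment, and Dct at -2.47 is the lowest of them.

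The 12 genes with the smallest p on each side, predicted gene models aside, are described next; none passed after adjustment. On the lower side Id4 (ENSMUSG00000021379), an inhibitor of helix-loop-helix transcription factors and a target of BMP signalling, came closest. Its level was 87.0, 115 and 75.8 CPM in ECKO 1, 2 and 3, against 261, 255 and 319 CPM in CTRL 1, 2 and 3. The groups were far apart relative to their spread, with means of 92.7 ± 20.4 CPM in ECKO and 278 ± 35.6 CPM in CTRL (SD, n = 3 each) and a log2 fold change of -1.54 ± 0.30 (SE, adjusted p = 0.111). Its 95% interval ran from -2.16 to -0.92. Id4 passed in 6 of 22 alternative settings: with DESeq2, with no low-count filter, with the 6 libraries alone, and without SMKO 2, DKO 1 or DKO 3. Those libraries enter this comparison through the spread, the low-count filter and the scaling. Without SMKO 2, DKO 1 or DKO 3 the tested genes numbered 7627, 7609 and 7557, against 6296. Across all 22 settings the log2 fold change of Id4 lay between -1.76 and -1.40.

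Kitl, which encodes the KIT ligand (stem cell factor), lay lower as well, at 87.0, 159 and 129 CPM in ECKO 1, 2 and 3, against 211, 304 and 186 CPM in CTRL 1, 2 and 3. No ECKO library reached the lowest CTRL value, and the log2 fold change was -0.88 ± 0.29 (SE, adjusted p = 0.998). Dsp encodes desmoplakin, which ties intermediate filaments to desmosomes. It stood at 61.4, 45.2 and 45.9 CPM in ECKO, against 87.4, 131 and 74.3 CPM in CTRL (-1.06 ± 0.32, SE), again without overlap. Sgpl1, the lyase that breaks down sphingosine 1-phosphate, had 71.7, 62.7 and 48.2 CPM in ECKO, against 93.3, 121 and 104 CPM in CTRL (-0.83 ± 0.28). Safb, a nuclear matrix and RNA-binding protein, had 20.5, 27.7 and 16.1 CPM in ECKO, against 75.8, 38.6 and 74.3 CPM in CTRL (-1.42 ± 0.37). Rnf149, a ubiquitin ligase, Tsen34, a subunit of the tRNA splicing endonuclease, and Ubl4a, a chaperone cofactor for tail-anchored proteins, also lay lower without overlap (-1.27, -0.88 and -1.49). Qpct, a glutaminyl cyclase (-0.90), and Tnks2, a tankyrase (-0.92), overlapped between the groups: 1 of 3 ECKO libraries had as much Tnks2 as CTRL (138, 62.7 and 39.0 CPM in ECKO, against 137, 136 and 134 CPM in CTRL). Tsen34 shares exon sequence with Mboat7 on the opposite strand and Ubl4a with Slc10a3 on the same strand, which makes their counts uncertain.

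On the higher side Trim34a, a member of the tripartite motif family, had the smallest p, with 71.7, 49.6 and 34.4 CPM in ECKO 1, 2 and 3, against 16.0, 6.18 and 22.3 CPM in CTRL 1, 2 and 3. All 3 ECKO libraries exceeded all 3 CTRL libraries, and the log2 fold change was 1.95 ± 0.46 (SE, adjusted p = 0.422). Counts behind it were few: 14, 34 and 15 counts in ECKO 1, 2 and 3, against 11, 4 and 3 counts in CTRL 1, 2 and 3. Chpf2, an enzyme that extends chondroitin sulfate chains, stood at 51.2, 43.8 and 66.6 CPM in ECKO, against 21.9, 17.0 and 14.9 CPM in CTRL (1.48 ± 0.38). Cilp2, a cartilage intermediate layer protein of the matrix, stood at 66.6, 117 and 78.1 CPM in ECKO, against 61.2, 29.4 and 29.7 CPM in CTRL (1.07 ± 0.36). Fmnl2, a formin that elongates actin filaments, had 46.1, 75.9 and 94.1 CPM in ECKO, against 32.1, 35.5 and 37.1 CPM in CTRL (1.13 ± 0.32). For these 3 genes the lowest ECKO library was still above the highest CTRL library, by a narrow margin for Cilp2.

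Nppc encodes C-type natriuretic peptide, a vasoactive peptide made by endothelium. It had 25.6, 87.5 and 59.7 CPM in ECKO 1, 2 and 3, against 24.8, 20.1 and 29.7 CPM in CTRL 1, 2 and 3. ECKO 2 and 3 were high while ECKO 1 lay within the CTRL range, and the log2 fold change was 1.44 ± 0.39 (SE, adjusted p = 0.65). Mxd4, a MAX partner that opposes MYC, was the most abundant gene of the higher side at 236, 223 and 227 CPM in ECKO, against 144, 127 and 89.2 CPM in CTRL (0.86 ± 0.26). Slfn5, a Schlafen family member, had 113, 107 and 82.6 CPM in ECKO, against 37.9, 52.5 and 59.4 CPM in CTRL (1.07 ± 0.29). Txndc11, a thioredoxin-domain protein of the endoplasmic reticulum, Akap8, a nuclear anchor of protein kinase A, and Sirt2, a NAD-dependent deacetylase, lay higher without overlap (1.42, 1.04 and 0.96). Ppp2r3d, a phosphatase subunit (1.07), and St6galnac4, a sialyltransferase (0.97), overlapped. Exons of Chpf2, Txndc11 and Sirt2 overlap genes on the opposite strand (Smarcd3, Snn and Nfkbib). Of the 24 genes, 19 did not overlap between groups, 9 higher and 10 lower; they were picked by p, so this count is a description.

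**Figure D2:**
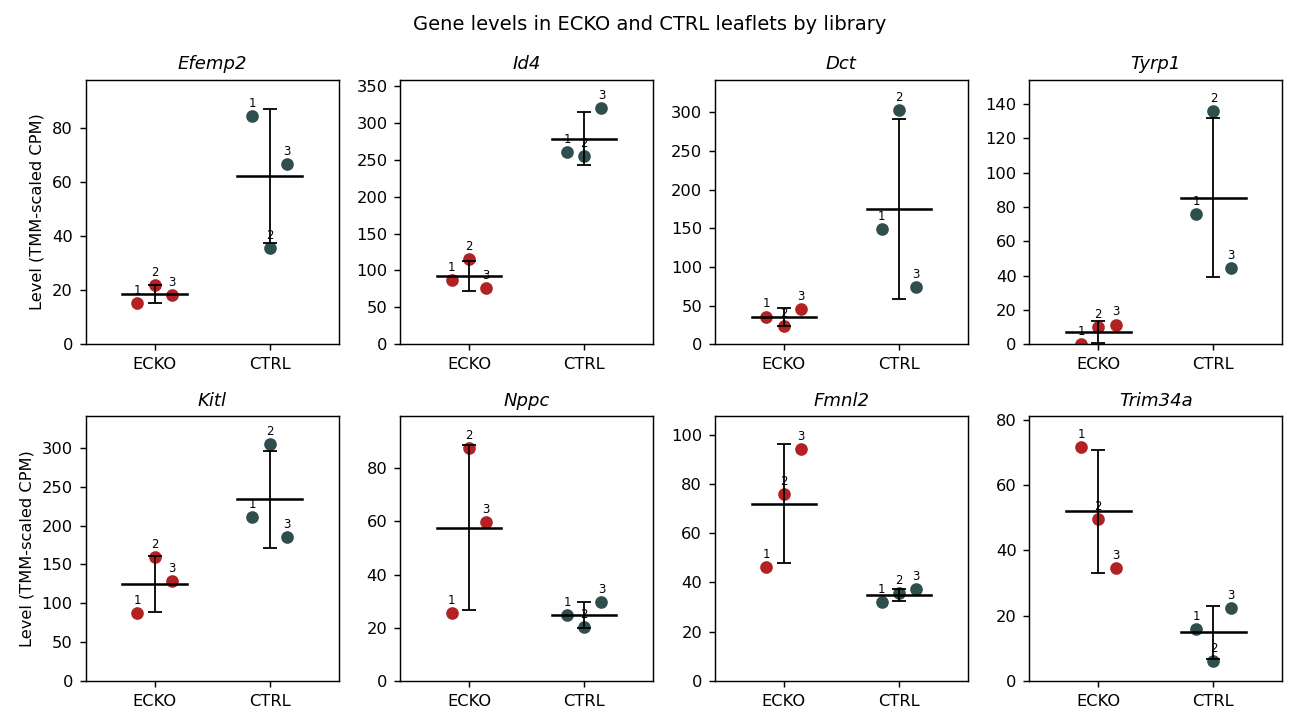
Level (TMM-scaled CPM, vertical axis) of 8 genes in each ECKO library (red) and each CTRL library (dark grey), with library numbers; lines are means and bars are SD (n = 3). Efemp2, Id4, Dct, Tyrp1 and Kitl lie lower in every ECKO library than in every CTRL library, Fmnl2 and Trim34a lie higher, and Nppc overlaps through ECKO 1 at 25.6 CPM.

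Of the lists with at least 5 tested members, the melanocyte genes lay lowest in ECKO leaflets. Dct (dopachrome tautomerase), Tyrp1 (tyrosinase-related protein 1) and Tyr (tyrosinase) encode the enzymes that turn tyrosine into melanin inside melanosomes. Pmel builds the fibrils on which melanin is laid down, and Mlana is a melanosome membrane protein. The promoters of the 3 enzyme genes are shown because these genes lay low together and because they are known targets of MITF, the melanocyte transcription factor, which binds the M-box core TCATGTG. Below are the 250 bases before the start of each enzyme gene, 5′ to 3′ on the gene's strand, from RefSeq (GRCm38.p6), with TCATGTG or its reverse complement CACATGA in capitals: Dct at chr14:118052247-118052496 (minus strand), Tyr at chr7:87493513-87493762 (minus strand) and Tyrp1 at chr4:80833963-80834212 (plus strand).
Dct: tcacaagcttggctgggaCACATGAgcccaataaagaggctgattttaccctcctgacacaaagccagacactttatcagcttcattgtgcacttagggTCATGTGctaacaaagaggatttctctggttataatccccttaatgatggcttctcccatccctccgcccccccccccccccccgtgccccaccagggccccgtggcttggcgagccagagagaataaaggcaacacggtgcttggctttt
Tyr: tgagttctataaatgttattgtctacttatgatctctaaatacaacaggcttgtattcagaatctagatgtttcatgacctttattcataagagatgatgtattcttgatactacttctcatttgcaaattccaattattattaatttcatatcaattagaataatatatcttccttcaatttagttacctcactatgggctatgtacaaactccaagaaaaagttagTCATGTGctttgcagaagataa
Tyrp1: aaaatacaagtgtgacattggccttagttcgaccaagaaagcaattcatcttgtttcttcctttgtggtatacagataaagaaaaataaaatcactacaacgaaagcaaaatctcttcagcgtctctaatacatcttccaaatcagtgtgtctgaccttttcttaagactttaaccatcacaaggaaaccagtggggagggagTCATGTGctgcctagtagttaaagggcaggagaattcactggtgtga
The 7 letters begin 232 and 151 bases before the start of Dct, 22 before that of Tyr and 47 before that of Tyrp1. On either strand they occur in 3.25% of the 32851 promoter windows of the same 250 bases and in 3.72% of the 27025 genes. Of the 17 melanocyte genes listed besides Id4, 11 are in the promoter table and 6 of these hold the letters; a match is a description of sequence only.

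Dct had 7, 16 and 20 counts in ECKO 1, 2 and 3, against 102, 196 and 10 counts in CTRL 1, 2 and 3, which is 35.8, 23.3 and 45.9 CPM in ECKO 1, 2 and 3, against 149, 303 and 74.3 CPM in CTRL 1, 2 and 3. The highest ECKO value lay below the lowest CTRL value, which was CTRL 3. The log2 fold change was -2.47 ± 0.48 (SE, adjusted p = 0.422), with a 95% interval from -3.51 to -1.44; without CTRL 2, the highest library, it was -1.85. Tyrp1 had 0, 7 and 5 counts in ECKO 1, 2 and 3, against 52, 88 and 6 counts in CTRL 1, 2 and 3 (-3.34 ± 1.03). Mlana had 0, 3 and 3 counts in ECKO 1, 2 and 3, against 17, 59 and 3 counts in CTRL 1, 2 and 3 (-3.43 ± 1.09), and without CTRL 2 its log2 fold change was -2.33. Pmel had 0, 5 and 3 counts in ECKO 1, 2 and 3, against 18, 58 and 2 counts in CTRL 1, 2 and 3 (-3.02 ± 0.98), and without CTRL 2 its log2 fold change was -1.92. In CPM none of these genes overlapped between groups, though CTRL 3 and all ECKO libraries rest on few counts. The adjusted p was 0.998 for each of Tyrp1, Mlana and Pmel, and Pmel overlaps exons of Cdk2 and Dgka.

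Among the 11 members too low to be tested, several had counts in CTRL and almost none in ECKO. Tyr had 0, 1 and 0 counts in ECKO 1, 2 and 3, against 10, 14 and 1 in CTRL 1, 2 and 3. Trpm1, a melanocyte cation channel, had 0 in each ECKO library, against 8, 15 and 1 in CTRL. Sox10, a neural crest transcription factor, had 0 in each ECKO library, against 4, 5 and 2 in CTRL. Some other listed genes showed no such gap. Mitf had 25.6, 17.5 and 29.8 CPM in ECKO, against 18.9, 35.5 and 37.1 CPM in CTRL (-0.29 ± 0.49). Ednrb, an endothelin receptor that endothelium also expresses, had 61.4, 67.1 and 57.4 CPM in ECKO, against 81.6, 69.5 and 29.7 CPM in CTRL (-0.12 ± 0.32). Kit, the receptor for the KIT ligand, had 2, 4 and 4 counts in ECKO 1, 2 and 3, against 8, 11 and 1 in CTRL. Rab27a, which serves vesicle transport in many cells, had 6, 14 and 14 counts in ECKO, against 15, 11 and 4 in CTRL.

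Of the 17 listed genes besides Id4, 6 were tested and 11 had too few counts. At an unadjusted p under 0.05, 4 of the 6 lay lower and 0 higher (2.22% and 2.11% of all genes, the shares for such counts in every list). All 6 fold changes were below 0 (49.5% of all genes lay above 0), and the same 4 lay lower without overlap (6.07% of all genes). Tyrp1, Mlana and Pmel, with at most 7 counts in any ECKO library, entered the test through counts in other groups. These counts and the median therefore depend on which members could be tested. The median was -2.75, or -2.97 without ECKO 1 and CTRL 3. In the fit of the 6 libraries alone the median was -0.28; Mlana and Pmel did not pass the low-count filter there, while Dct and Tyrp1 stood at -2.50 and -3.35. Summed over all 17 listed genes, tested or not, the list stood at 179, 166 and 225 CPM in ECKO 1, 2 and 3, against 462, 855 and 305 CPM in CTRL 1, 2 and 3. The 3 ECKO libraries lay close to each other and below the lowest CTRL library, while the CTRL libraries spread widely. Id4 is expressed in melanocytes but also elsewhere in the leaflet, and whether it and Kitl lay lower in the same cells was not tested.

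The elastic fibre genes, the group to which fibulin-4 belongs, lay on both sides of 0. Of 27 listed genes 23 were tested; 2 lay higher and 1 lower at an unadjusted p under 0.05, 3 lay above and 1 below without overlap (5.73% and 6.07% of all genes), and the median was 0.17. The lower gene was Efemp2 itself. Adamtsl4, which promotes microfibril assembly, had 66.6, 91.9 and 96.4 CPM in ECKO, against 52.5, 46.4 and 52.0 CPM in CTRL (0.81 ± 0.31). Ltbp2, a microfibril-associated protein, had 445, 584 and 374 CPM in ECKO, against 283, 294 and 282 CPM in CTRL (0.71 ± 0.31). Both lay higher in every ECKO library. The list's most abundant members, Ltbp4, which carries latent TGF-beta, and Fbln1, a related fibulin, overlapped between groups (3528, 2683 and 3069 CPM in ECKO, against 2099, 2689 and 4034 CPM in CTRL for Ltbp4).

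Fibrillar collagens and the enzymes that assemble them lay slightly higher in ECKO, though none passed after adjustment. Of 26 listed genes 24 were tested, 22 had a fold change above 0 (49.5% of all genes did), and 9 lay higher without overlap against 0 lower (5.73% and 6.07% of all genes). Only 1 had an unadjusted p under 0.05, Plod2, a lysyl hydroxylase that prepares collagen for cross-linking, with 113, 163 and 110.2 CPM in ECKO 1, 2 and 3, against 77.2, 75.7 and 89.2 CPM in CTRL 1, 2 and 3 (0.74 ± 0.26, SE, adjusted p = 0.998). Plod3, its relative, had 143, 127 and 124 CPM in ECKO, against 96.2, 77.3 and 111 CPM in CTRL (0.51 ± 0.26), and Col5a1, which starts collagen fibrils, had 307, 403 and 321 CPM in ECKO, against 289, 196 and 253 CPM in CTRL (0.49 ± 0.26). The median was 0.31, or 0.35 without ECKO 1 and CTRL 3, and it lay between 0.21 and 0.36 over 18 settings. The summed level was 17194, 14847 and 13488 CPM in ECKO 1, 2 and 3, against 12094, 9711 and 13455 CPM in CTRL 1, 2 and 3; CTRL 3 and ECKO 3 were nearly equal. Sparc, a collagen-binding protein, held the largest part of it (4357, 3349 and 3175 CPM in ECKO, against 2198, 1943 and 3158 CPM in CTRL), so the sum is not a level of collagens alone. Exons of Plod3 overlap Znhit1 on the opposite strand.

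Other matrix groups were mixed. In the basement membrane list 16 of 22 genes were tested and 0 had an unadjusted p under 0.05; Col4a1, a collagen IV chain, had 199.7, 226 and 243 CPM in ECKO, against 189, 149.9 and 171 CPM in CTRL (0.40 ± 0.29), and it overlaps Col4a2. Among proteoglycans and hyaluronan genes 19 of 31 were tested, 0 higher and 1 lower at that threshold, with a median of -0.11. That gene was Vcan, the large proteoglycan versican of the loose leaflet layer, at 323, 496 and 404 CPM in ECKO 1, 2 and 3, against 622, 855 and 483 CPM in CTRL 1, 2 and 3 (-0.68 ± 0.28). Hapln1, the link protein that binds versican to hyaluronan, stood at 46.1, 91.9 and 82.6 CPM in ECKO, against 93.3, 142 and 171 CPM in CTRL (-0.72 ± 0.36), and Fmod, a collagen-binding small proteoglycan, at 978, 943 and 847 CPM in ECKO, against 616, 663 and 617 CPM in CTRL (0.54 ± 0.30). Vcan overlapped by ECKO 2 alone, and Hapln1 and Fmod did not overlap. Of the matricellular genes 20 of 25 were tested, 1 higher and 0 lower, and without overlap 4 lay higher and 1 lower (5.73% and 6.07% of all genes). Their median was 0.28, or 0.41 without ECKO 1 and CTRL 3, and it ran from -0.09 to 0.41 over 18 settings. The gene past the threshold was Mfge8, a bridge to dying cells and a part of elastic tissue. It stood at 353, 627 and 443 CPM in ECKO, against 338, 267 and 297 CPM in CTRL (0.67 ± 0.29). Of the matrix proteases and their inhibitors 27 of 36 were tested and 0 had an unadjusted p under 0.05; the highest fold change was that of the cystatin Cst6, on few counts (6, 14 and 4 counts in ECKO 1, 2 and 3, against 4, 5 and 1 counts in CTRL 1, 2 and 3).

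**Figure D3:**
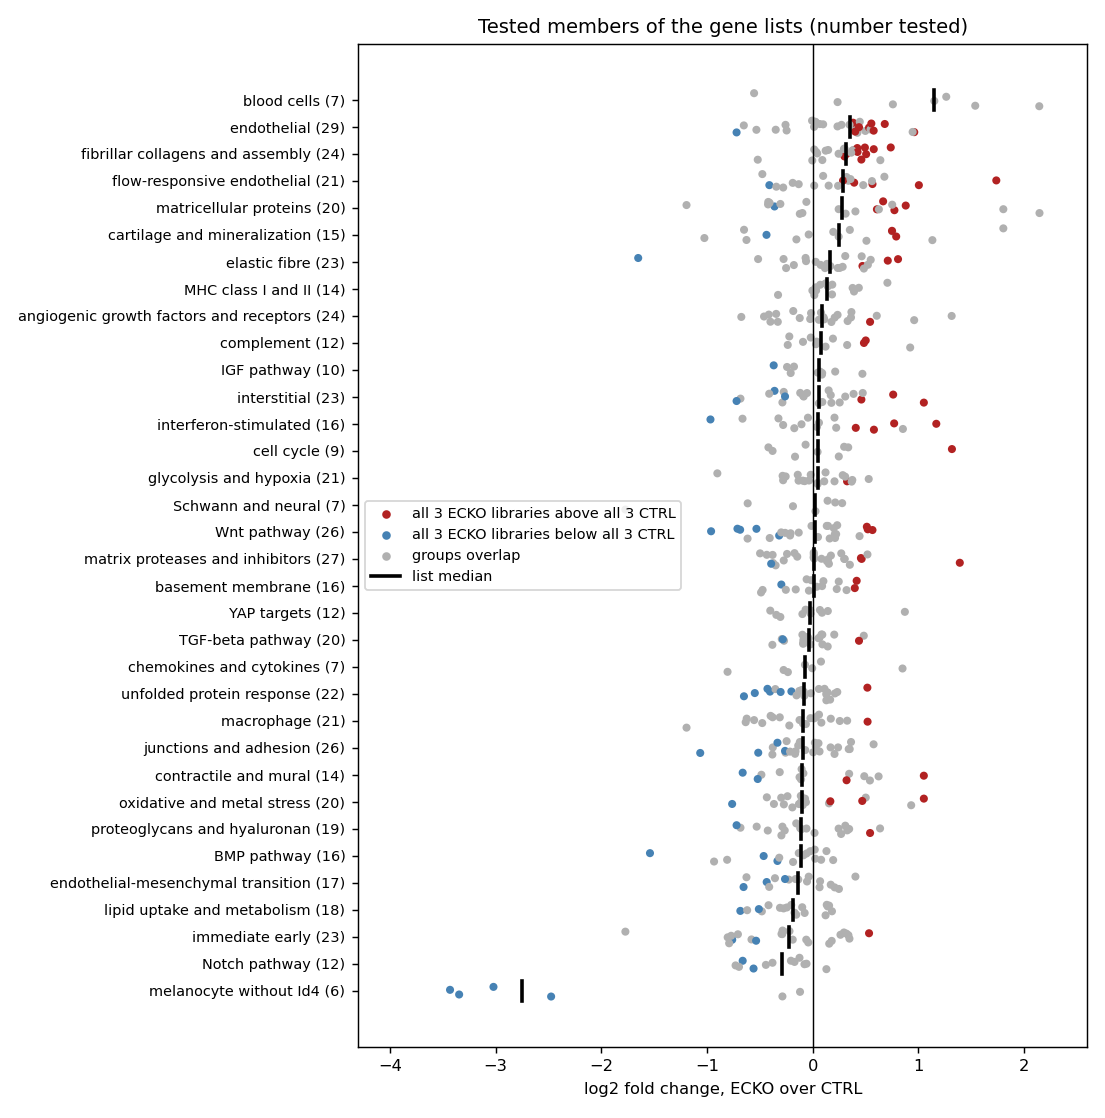
Log2 fold changes (ECKO over CTRL, horizontal axis) of the tested members of each gene list with at least 5, in the order of their medians (black bars), with the number tested. Red points lie higher in all 3 ECKO than in all 3 CTRL libraries, blue points lower, grey points overlap; the melanocyte genes without Id4 have the lowest median, -2.75, and the endothelial list stands at 0.35. Spread in height within a line only separates the points.

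Endothelial genes, those of the cell type named in the ECKO genotype, lay on balance a little higher in ECKO. Of 34 listed markers 29 were tested; 22 had a fold change above 0, 8 lay higher and 1 lower without overlap (5.73% and 6.07% of all genes), and 5 were higher and 1 lower at an unadjusted p under 0.05 (2.11% and 2.22% of all genes). Ecscr, an endothelial surface protein, overlapped through ECKO 1 (20.5, 45.2 and 57.4 CPM in ECKO, against 21.9, 26.3 and 14.9 CPM in CTRL, 0.95 ± 0.39). Icam2, an adhesion molecule, had 118, 89.0 and 96.4 CPM in ECKO, against 48.1, 69.5 and 74.3 CPM in CTRL (0.68 ± 0.31). The other 3 on the higher side were named after their values were seen. Vwf, the von Willebrand clotting factor, had 113, 121 and 149 CPM in ECKO 1, 2 and 3, against 74.3, 66.5 and 44.6 CPM in CTRL 1, 2 and 3 (0.96 ± 0.44, SE). Mmrn2, an endothelial matrix protein, had 97.3, 129.9 and 135 CPM in ECKO, against 77.2, 85.0 and 96.6 CPM in CTRL (0.56 ± 0.26). Flt1, a VEGF receptor, had 164, 222 and 289 CPM in ECKO, against 99.1, 178 and 215 CPM in CTRL (0.55 ± 0.27). The transcription factor Fli1 lay on the other side at 76.8, 56.9 and 39.0 CPM in ECKO, against 96.2, 81.9 and 74.3 CPM in CTRL (-0.65 ± 0.30). The list median was 0.35, 0.37 without ECKO 1 and CTRL 3, and between 0.21 and 0.40 over 18 settings. Summed levels overlapped: 4403, 4589 and 4821 CPM in ECKO 1, 2 and 3, against 3756, 4133 and 4473 CPM in CTRL 1, 2 and 3, with CTRL 3 above ECKO 1. In DKO against SMKO, which are other libraries, 7 of the same 29 genes lay above 0 and the median was -0.25.

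Genes listed for blood flow in endothelium lay mostly on the same side. The list pools flow-induced genes with parts of flow sensors, so a common sign is not a direction of response to flow. Nos3 is in both this list and the endothelial list. Of 29 listed, 21 were tested and 15 lay above 0 (49.5% of all genes did), with 5 higher and 1 lower without overlap (5.73% and 6.07% of all genes) and a median of 0.29. Ptgs1, a prostaglandin synthase, had 56.3, 136 and 78.1 CPM in ECKO, against 48.1, 69.5 and 66.9 CPM in CTRL (0.68 ± 0.31), and Wnt9b, a Wnt ligand of valve endothelium, had 102, 128 and 138 CPM in ECKO 1, 2 and 3, against 90.4, 75.7 and 89.2 CPM in CTRL 1, 2 and 3 (0.57 ± 0.28). Wnt9b did not overlap between groups, and ECKO 1 was the nearest to CTRL. Pkd1, a component of a ciliary flow sensor, had 97.3, 99.2 and 103 CPM in ECKO, against 17.5, 30.9 and 66.9 CPM in CTRL (1.74 ± 0.82), and it shares exon sequence with Tsc2. Klf2, a flow-induced transcription factor, overlapped, with 901, 524 and 494 CPM in ECKO, against 360.0, 510.0 and 654 CPM in CTRL. For endothelial-mesenchymal transition 17 of 21 genes were tested, 0 higher and 1 lower at an unadjusted p under 0.05, with a median of -0.14; the lower gene was Sox9, a transcription factor of valve precursors and cartilage (169, 193 and 197 CPM in ECKO, against 289, 363 and 193 CPM in CTRL, -0.63 ± 0.26).

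Notch pathway genes lay slightly lower. Notch signalling passes from ligands on a cell to receptors on its neighbour and controls endothelial fate. Of 20 listed genes 12 were tested, and 11 had a fold change below 0 (49.5% of all genes lay above 0). Without overlap 2 lay lower and 0 higher (6.07% and 5.73% of all genes), and the median was -0.29. Notch2, a receptor, had 123, 128 and 115 CPM in ECKO 1, 2 and 3, against 222, 158 and 149 CPM in CTRL 1, 2 and 3 (-0.56 ± 0.27, SE, adjusted p = 0.998). It was the only member with an unadjusted p under 0.05. Maml2, a coactivator, had 20.5, 27.7 and 39.0 CPM in ECKO, against 37.9, 54.1 and 66.9 CPM in CTRL (-0.70 ± 0.37), and Hey1, a target, had 25.6, 21.9 and 48.2 CPM in ECKO, against 56.8, 52.5 and 44.6 CPM in CTRL (-0.73 ± 0.40). Maml2 and Hey1 overlapped by 1 ECKO library each, ECKO 3. Without ECKO 1 and CTRL 3 the median was -0.21, and over 18 settings it lay between -0.34 and -0.16.

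In the BMP pathway 16 of 25 genes were tested, with 0 higher and 2 lower at an unadjusted p under 0.05 (2.11% and 2.22% of all genes) and a median of -0.11. Besides Id4 the other gene was the ligand Bmp6, at 30.7, 35.0 and 41.3 CPM in ECKO, against 55.4, 86.6 and 29.7 CPM in CTRL (-0.81 ± 0.36), which overlaps Txndc5 on the opposite strand. The receptor Bmpr2 had 189, 209 and 216 CPM in ECKO, against 219, 294 and 267 CPM in CTRL (-0.33 ± 0.24), and Id3, another BMP target, overlapped at 691, 667 and 822 CPM in ECKO, against 736, 767 and 817 CPM in CTRL. Id4 had the lowest fold change of its list. In the Wnt pathway 26 of 38 genes were tested, 1 higher and 2 lower at that threshold (2.11% and 2.22% of all genes). Wnt5a, a ligand, had 199.7, 156 and 186 CPM in ECKO, against 275, 259.7 and 342 CPM in CTRL (-0.69 ± 0.29); Apcdd1, an inhibitor, 169, 118 and 103 CPM in ECKO, against 166, 244 and 156 CPM in CTRL (-0.62 ± 0.26); and Lrp6, a coreceptor, 241, 201 and 186 CPM in ECKO, against 149, 139 and 149 CPM in CTRL (0.51 ± 0.23). Wnt5a and Lrp6 did not overlap. Of the TGF-beta pathway 20 of 23 genes were tested and of the YAP targets 12 of 20, with 0 past the same threshold in either list and medians of -0.03 and -0.02. Ccn2, a target of both pathways, overlapped at 1188, 1024 and 810.4 CPM in ECKO, against 1139.6, 763 and 1337 CPM in CTRL.

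Immune and stress genes were close to even. Of 16 tested interferon-stimulated genes (30 listed) 2 lay higher and 0 lower at an unadjusted p under 0.05 (2.11% and 2.22% of all genes). Stat2, a transducer of interferon signals, had 46.1, 23.3 and 34.4 CPM in ECKO, against 16.0, 13.9 and 7.43 CPM in CTRL (1.17 ± 0.45), and Oasl2, an antiviral effector, 41.0, 36.5 and 52.8 CPM in ECKO, against 21.9, 29.4 and 22.3 CPM in CTRL (0.77 ± 0.37). Bst2, a virus-tethering protein, lay on the other side (20.5, 23.3 and 11.5 CPM in ECKO, against 40.8, 29.4 and 44.6 CPM in CTRL, -0.97 ± 0.53). In these 3 genes the groups did not overlap, while the list median was 0.05. Of 12 tested complement genes (23 listed) 1 lay higher, Serping1, which inhibits the first component (169, 191 and 227 CPM in ECKO, against 159, 131 and 119 CPM in CTRL, 0.50 ± 0.24). Of 14 tested MHC genes (22 listed) and 7 tested chemokines and cytokines (30 listed) 0 passed that threshold, with medians of 0.13 and -0.07.

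Of the immediate early genes, which answer to acute stimuli and to tissue handling, 23 of 28 were tested, 0 higher and 3 lower (2.11% and 2.22% of all genes), with a median of -0.22. They were Egr2 (10.2, 16.1 and 2.30 CPM in ECKO, against 11.7, 57.2 and 44.6 CPM in CTRL, -1.77 ± 0.65), Fosl2 (46.1, 71.5 and 84.9 CPM in ECKO, against 134, 89.6 and 149 CPM in CTRL, -0.76 ± 0.29) and Nr4a1 (138, 81.7 and 84.9 CPM in ECKO, against 96.2, 210.2 and 223 CPM in CTRL, -0.80 ± 0.33), all transcription factors. Fosl2 alone of these did not overlap. Of the unfolded protein response genes 22 of 25 were tested, 0 higher and 1 lower, with 6 lower and 1 higher without overlap (6.07% and 5.73% of all genes) and a median of -0.08. Canx, a chaperone of the endoplasmic reticulum, had 364, 395 and 308 CPM in ECKO 1, 2 and 3, against 510.1, 478 and 579.5 CPM in CTRL 1, 2 and 3 (-0.55 ± 0.26). Sel1l, which exports misfolded proteins for degradation, had 138, 147 and 131 CPM in ECKO, against 204, 185 and 163 CPM in CTRL (-0.43 ± 0.23). Both were lower in every ECKO library by a modest amount.

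Summed markers of the other cell types overlapped between the groups, apart from the lymphocyte and mast cell genes, which had few counts. Like all summed levels here, the sums add every listed gene, tested or not. Haemoglobin and platelet genes (7 tested of 14) summed to 113, 5695 and 3459.7 CPM in ECKO 1, 2 and 3, against 708, 292 and 3574 CPM in CTRL 1, 2 and 3; ECKO 2, ECKO 3 and CTRL 3 were high. Heart muscle genes (3 tested of 25) summed to 317, 1677 and 484 CPM in ECKO 1, 2 and 3, against 379, 451 and 349 CPM in CTRL 1, 2 and 3, and ECKO 2 alone stood out. Beside it, the contractile genes Tpm1 (164, 395 and 131 CPM in ECKO, against 171, 142 and 186 CPM in CTRL) and Myl9 (66.6, 94.8 and 45.9 CPM in ECKO, against 36.4, 30.9 and 37.1 CPM in CTRL, 1.05 ± 0.37) were highest in ECKO 2; the part of muscle in this was not tested. Abcc9, a channel subunit of mural cells, lay lower in every ECKO library (189, 182 and 163 CPM in ECKO, against 259, 241 and 267 CPM in CTRL, -0.52 ± 0.23), and the contractile and mural list (14 tested of 21) had a median of -0.10, with 1 higher and 1 lower at an unadjusted p under 0.05. Macrophage genes (21 tested of 30) summed to 2647, 1790.4 and 1756 CPM in ECKO 1, 2 and 3, against 1851, 2425 and 2444 CPM in CTRL 1, 2 and 3, overlapping, with 0 higher and 1 lower. That gene was Gpnmb, a melanosome and lysosome glycoprotein that melanocytes also express, at 66.6, 48.2 and 66.6 CPM in ECKO, against 87.4, 224 and 59.4 CPM in CTRL (-1.19 ± 0.53), high in CTRL 2 as the melanin genes were. The 24 lymphocyte and mast cell genes held 0 tested members, and Cd3e, Cd79a and Cpa3 had 0 counts in all 6 libraries. On few counts, this list summed to 25.6, 20.4 and 13.8 CPM in ECKO 1, 2 and 3, against 30.6, 27.8 and 74.3 CPM in CTRL 1, 2 and 3, without overlap. Interstitial markers (23 tested of 26) had a median of 0.06 and summed to 46850.1, 38250.2 and 36971 CPM in ECKO 1, 2 and 3, against 41008, 44172 and 49243 CPM in CTRL 1, 2 and 3.

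**Figure D4:**
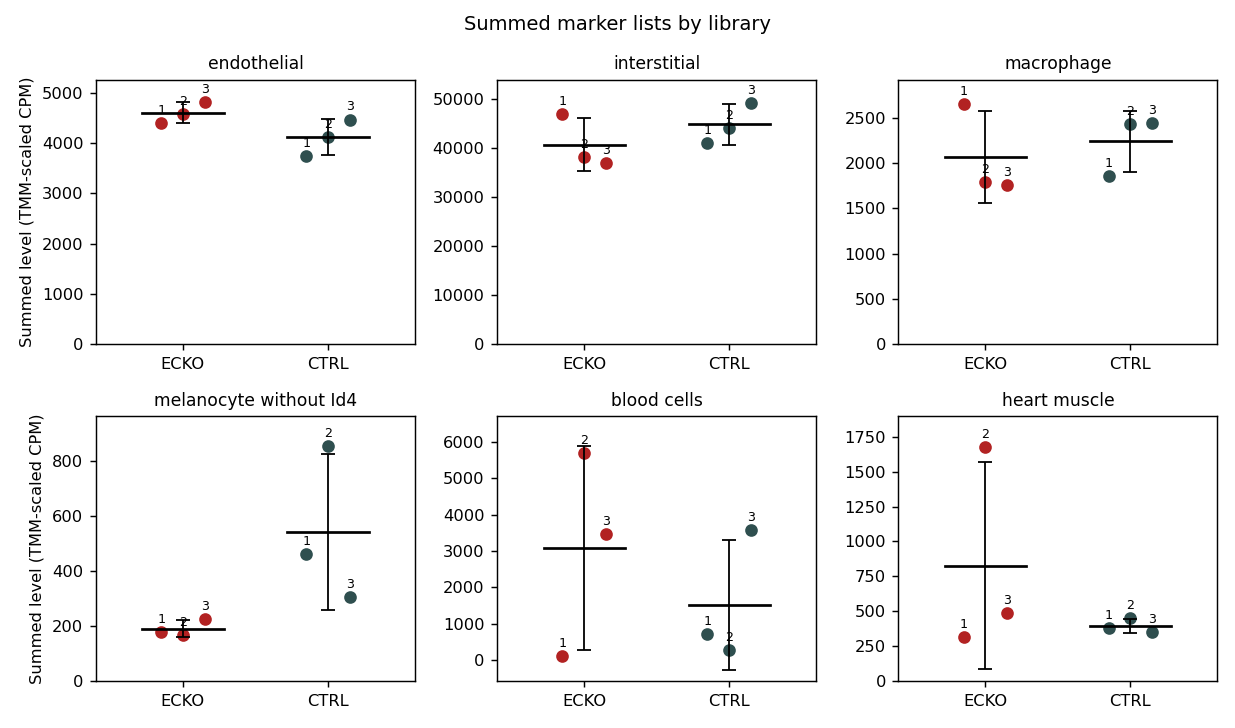
Summed level of all listed genes, tested or not, of 6 cell type lists (TMM-scaled CPM, vertical axis) in each ECKO library (red) and CTRL library (dark grey), with library numbers; lines are means and bars are SD (n = 3). The melanocyte sum without Id4 separates the groups, while blood and heart muscle sums follow single libraries, such as ECKO 2 at 1677 CPM for heart muscle.

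The remaining lists with at least 5 tested members had medians from -0.19 to 0.25. Cartilage and mineralization genes (15 tested of 28) had 2 higher and 2 lower members at an unadjusted p under 0.05 and a median of 0.25; Slc20a1, a phosphate transporter, had 25.6, 89.0 and 64.3 CPM in ECKO, against 29.1, 21.6 and 59.4 CPM in CTRL (1.13 ± 0.45), and Sox6, a partner of Sox9, 25.6, 13.1 and 13.8 CPM in ECKO, against 32.1, 35.5 and 22.3 CPM in CTRL (-1.02 ± 0.46). Both overlapped between the groups. Among angiogenic growth factors and receptors (24 tested of 41) 1 lay higher at that threshold, the growth factor Fgf1 (46.1, 45.2 and 13.8 CPM in ECKO, against 13.1, 18.5 and 29.7 CPM in CTRL). Among cell cycle genes (9 of 27) it was 1 higher, the cyclin-dependent kinase inhibitor Cdkn1c (35.8, 37.9 and 36.7 CPM in ECKO, against 16.0, 10.8 and 22.3 CPM in CTRL). Among oxidative and metal stress genes (20 of 25) 1 lay lower, Gclm of glutathione synthesis (30.7, 36.5 and 41.3 CPM in ECKO, against 61.2, 60.3 and 74.3 CPM in CTRL), and among junction and adhesion genes (26 of 35) Dsp. Their medians were 0.09, 0.05, -0.10 and -0.10. Of the 26 tested junction and adhesion genes 4 lay lower and 0 higher without overlap (6.07% and 5.73% of all genes). The summed level of that list was 3405, 3461 and 3490 CPM in ECKO 1, 2 and 3, against 3777, 3987.5 and 3633 CPM in CTRL 1, 2 and 3, also without overlap. The IGF pathway (10 of 15), lipid metabolism (18 of 29) and glycolysis and hypoxia (21 of 28) had 0 members at an unadjusted p under 0.05, with medians of 0.06, -0.19 and 0.05. Schwann and neural genes (7 of 20) had a median of 0.03 with Egr2 the 1 lower member, and the 13 mitochondrially encoded genes -0.10 with 0 members past the threshold. Adipocyte and mesothelial lists had 3 tested members each.

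DKO against SMKO share no library with ECKO and CTRL, and only the estimate of the spread, the low-count filter and the scaling. By label this pair also differs in the endothelial deletion, but in valves with the smooth muscle deletion. This pair barely differed in the deleted gene itself: Efemp2 had 0, 0 and 0 counts in DKO 1, 2 and 3, against 4, 0 and 0 counts in SMKO 1, 2 and 3 (6.81 CPM in SMKO 1), below every ECKO library. At this depth a further loss of Efemp2 in DKO leaflets was not detectable, so the pair is a second endothelial deletion by its labels only. There too edgeR called 0 genes (0%), with 396 at an unadjusted p under 0.05 (6.29%), while DESeq2 called 3 and limma-voom 54. The sign of the fold change was that of ECKO against CTRL in 48.1% of all tested genes. Of the 23 genes described above other than Efemp2, 14 had the same sign, 9 of the 12 higher and 5 of the 11 lower. Several stood near 0 in this pair, so their sign says little. Examples are Sirt2 (0.008 ± 0.38, SE) and Akap8 (0.04 ± 0.33) with the same sign, and Sgpl1 (0.009 ± 0.29) and Trim34a (-0.05 ± 0.49) with the other. Nppc lay higher in DKO as it did in ECKO, with 86.3, 47.8 and 53.9 CPM in DKO 1, 2 and 3, against 10.2, 30.8 and 13.8 CPM in SMKO 1, 2 and 3 (log2 fold change 1.90 ± 0.50, SE, adjusted p = 0.3), and every DKO library exceeded every SMKO library. Dsp lay lower in DKO, with 40.9, 27.9 and 12.4 CPM in DKO 1, 2 and 3, against 56.1, 61.6 and 13.8 CPM in SMKO 1, 2 and 3 (-0.94 ± 0.42), with overlap. The melanin genes were present in DKO: Dct had 318, 149 and 153 CPM in DKO 1, 2 and 3, against 298, 308 and 179 CPM in SMKO 1, 2 and 3 (-0.44 ± 0.42), and the melanocyte list without Id4 had a median of -0.32. Medians in DKO against SMKO were 0.44 for the collagen list, -0.07 for Notch and 0.03 for the flow-responsive genes. Collagen list sums overlapped, with 30409, 23714 and 31518 CPM in DKO 1, 2 and 3, against 12625, 33759 and 11967 CPM in SMKO 1, 2 and 3. SMKO 2 lay above every DKO library.

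Whether the endothelial deletion acted differently in the 2 backgrounds was tested as an interaction, (DKO - SMKO) - (ECKO - CTRL). At an adjusted p under 0.05, 2 of 6296 genes passed (0.0318%), Id4 and Fmnl2, with 392 at an unadjusted p under 0.05 (6.23%). Id4 had 490.3, 313 and 170.0 CPM in DKO 1, 2 and 3, against 180.3, 128 and 193 CPM in SMKO 1, 2 and 3, while it was lower in ECKO than in CTRL as given above. The difference of the effects was 2.50 ± 0.43 (log2, SE, adjusted p = 0.0105). DKO 3 overlapped SMKO for Id4. Fmnl2 had 27.2, 19.9 and 37.3 CPM in DKO 1, 2 and 3, against 98.7, 66.8 and 69.0 CPM in SMKO 1, 2 and 3, and it was higher in ECKO than in CTRL; the difference was -2.78 ± 0.49 (adjusted p = 0.0105). In neither pair did the groups overlap for Fmnl2. For Dct the difference was 2.04 ± 0.64 and did not pass (adjusted p = 0.625). Id4 passed in 15 and Fmnl2 in 14 of 21 alternative settings; without CTRL 1, ECKO 3, SMKO 1, DKO 1 or DKO 2 no gene passed, without ECKO 2 only Id4, and without SMKO 2 there were 62.

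**Figure D5:**
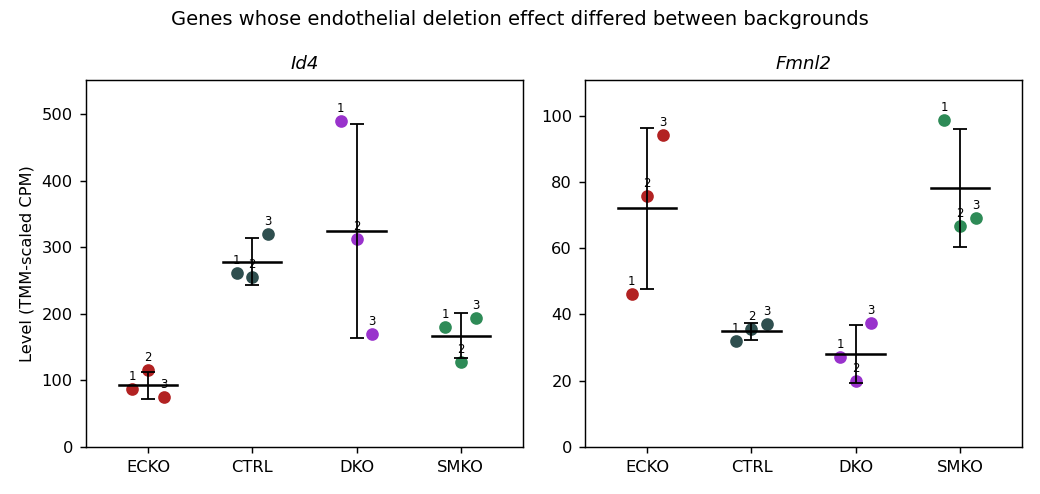
Level of Id4 and Fmnl2 (TMM-scaled CPM, vertical axis) in ECKO, CTRL, DKO and SMKO libraries, with library numbers; lines are means and bars are SD (n = 3). Id4 is lower in ECKO than in CTRL and its mean is higher in DKO than in SMKO, while Fmnl2 is higher in ECKO than in CTRL and lower in DKO than in SMKO.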

How the data were processed

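The authors deposited a table of 41709 genes that gives, per the file headers, the total counts of 12 libraries as whole numbers, and every test used these counts. TPM values, which the authors scaled by gene length in each library per the file headers, served to describe levels of marker and abundant genes in each group. No test used them. GRCm39 is the build named in the submitters' processing notes. No aligner, counting program, strand setting or annotation is stated. Exon overlaps were looked up in an older mouse annotation, and promoters were matched by symbol in a RefSeq table of GRCm38.p6.

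At least 1 count was present for 16588 genes. The filterByExpr function of edgeR, set to 10 counts and 3 libraries, kept 6296 genes with 93.1% of counts. All 12 libraries entered 1 model with a mean for each group and 8 residual degrees of freedom. After TMM scaling, genes were tested by the robust quasi-likelihood F test of edgeR 4.0.16 under R 4.3.3, with Benjamini-Hochberg adjustment over all tested genes, and called at an adjusted p under 0.05. The common biological coefficient of variation was 0.246. Each SE was taken as the size of the log2 fold change divided by the root of F. Libraries within ECKO and within CTRL differed by more than sampling noise (chi-square per degree of freedom 1.85 to 9.15), so each counted as a replicate. No library is tied to an animal, so p-values measure only the spread between these libraries, which may be technical.

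The comparison and the 41 gene lists (melanocyte genes with and without Id4 counted as separate lists) were chosen with earlier results of these data known. Named genes were all called genes and, with fewer than 20 called, those with the smallest unadjusted p up to 12 on each side, leaving out predicted gene models, and Efemp2. From each list with at least 5 tested members, up to 3 of the smallest p and 2 of the highest level could be named, and any member of a list of 10 or fewer. The alternatives were RLE size factors, no filter, a filter of 20 counts, DESeq2 1.42.0, limma-voom with library weights (limma 3.58.1), the 6 libraries alone, the replicate number as a block, depth as a covariate, no mitochondrially encoded genes, and each library left out. Code was tested on simulated counts.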

Additional observations from a re-analysis of the deposited data

Results flagged for a closer look

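For 2 genes the effect of the endothelial deletion differed between backgrounds, in edgeR's test of the difference itself. By label these were without the smooth muscle deletion (ECKO against CTRL) and with it (DKO against SMKO). In SMKO leaflets Efemp2 averaged 2.27 CPM, against 62.3 CPM in CTRL, so nearly all of its RNA was gone from the leaflet. Which cells lost it was not tested. For Id4 the difference, (DKO - SMKO) - (ECKO - CTRL), was 2.50 on the log2 scale (adjusted p = 0.0105), and over 21 alternative settings it lay between 2.13 and 2.83 with adjusted p from 2.97e-05 to 0.127. For Fmnl2 it was -2.78 (adjusted p = 0.0105), and it lay between -3.00 and -2.47 with adjusted p from 0.00115 to 0.561. Id4 passed in 15 of the 21 settings and Fmnl2 in 14. SMKO 3 held 74827 counts, the fewest of the 12 libraries, and mitochondrially encoded genes took 24.1% of counts in SMKO 2 and 28.5% in SMKO 3. Both genes passed without SMKO 2 and without SMKO 3, and neither passed without SMKO 1 (adjusted p = 0.0749 for Id4 and 0.561 for Fmnl2), ECKO 3, CTRL 1, DKO 1 or DKO 2. Efemp2 had 0 counts in each DKO library, against 4, 0 and 0 counts in SMKO 1, 2 and 3, so DKO and SMKO differ in the endothelial deletion by their labels and not measurably in the RNA of the deleted gene.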

How the results depend on the processing

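Against 0 genes called in ECKO against CTRL, there were 15 with no low-count filter (among them Dct, Pmel, Id4, Mlana, Trpm1 and Tyr), 2 with DESeq2 (Dct and Id4), 3 in a fit of the 6 libraries alone (Tyrp1, Id4 and Pkd1) and 0 to 2 with a library left out: Dct without CTRL 3, Id4 without SMKO 2 or DKO 3, and both without DKO 1. In all other settings the count was 0. Against 2 genes with a different effect in DKO against SMKO, there were 28 with no filter, 1 with DESeq2, 7 with limma-voom and 1 without ECKO 1 and CTRL 3 together, and 0 to 62 with a library left out, 62 without SMKO 2. The cause was not tested.

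The labels do not say whether the replicate numbers pair the libraries. Deviations from group means of same-numbered ECKO and CTRL libraries correlated across genes at -0.016, 0.11 and 0.017. Differently numbered libraries ran from -0.126 to 0.0813. With 3 libraries a group the deviations sum to 0 within each group, so these values cannot decide whether libraries were paired. With the replicate number as a block 0 genes were called in ECKO against CTRL (245 at an unadjusted p under 0.05) and 2 in the difference of effects, and Efemp2 stood at -1.46.

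Without ECKO 1 and CTRL 3, a setting chosen after the totals were seen, 0 genes were called. The stricter filter left Efemp2 out, and the difference of effects could not be fitted on 6 libraries. Efemp2 kept its direction and missed in every setting that tested it, with adjusted p from 0.0902 to 1. For the 24 genes named by p, 517 values under alternatives held 0 reversals, and 11 passed: Id4 in 6, Dct in 4 and Trim34a in 1. For 62 list examples, 1333 values held 2 reversals: Ednrb at 0.10 without CTRL 1 and Tpm1, which ran from -0.16 without ECKO 2 to 0.83 without ECKO 3. The 4 passes among them were Pmel, Mlana, Tyrp1 and Pkd1. Of 647 list medians 19 moved beyond the spread between libraries; that of the melanocyte list without Id4 ran from -3.46 without CTRL 1 to -0.28 in the fit of the 6 libraries alone.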
